A study of Mus musculus with 4 samples.

Results

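The circadian clock genes described here are 10 genes: Clock, which encodes an activator of the clock, the repressor genes Per1, Per2, Per3, Cry1 and Cry2, the nuclear receptor genes Nr1d1 and Nr1d2, and the output regulators Dbp and Tef. They were taken by name from 18193 genes on an Affymetrix mouse expression array, with all 24 probe sets that are annotated to 1 of them alone. RNA came from mouse dermal fibroblasts on a C57BL/6 background, with 1 array in each of 4 groups. In the first group Rbpj, the gene of the DNA-binding protein RBP-Jk of the Notch pathway, was deleted in vitro with an adenovirus carrying Cre, and its control received an adenovirus carrying GFP. In the third group fibroblasts came from mice with a ColI Cre transgene and loxP-flanked Rbpj alleles (deletion in vivo), and their control carried the loxP-flanked alleles without Cre. The share of cells that a ColI Cre or an adenovirus reached, the age and number of the mice and the number of cultures are not given in the sources used here. Nor are the hour of harvest and any synchronisation of the cells, so that circadian phase and the deletion cannot be told apart in any value below. Each group had a single array, so differences within a pair stand without replicates and without a p-value.

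The mammalian clock is a loop of transcription and repression. CLOCK and its partner BMAL1 bind E-boxes and switch on the Per and Cry genes, whose proteins return to the nucleus and block CLOCK and BMAL1. A further loop runs through the receptors REV-ERB alpha (Nr1d1) and REV-ERB beta (Nr1d2), which repress Bmal1 at ROR response elements, and the clock also drives the PAR bZIP factors DBP and TEF, which act on D-boxes. Cultured fibroblasts hold clocks of this kind in each cell, and serum, glucocorticoids and cAMP reset them, in part by inducing Per1.

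Promoter stretches whose letters match motifs of these loops are printed for some of the members that hold a match. They were chosen by hand for that match and not for the size of a difference. A match is a description of the sequence, and no binding was measured here. RefSeq sequences (GRCm38.p6) of 250 bases before to 50 bases after an annotated start were found for 9 of the 10 genes, in 13 windows, and only bases before the start are printed. Each line runs 5′ to 3′ in the direction of the gene, and capitals mark the motif.
Per1, chr11:69098743-69098828, plus strand: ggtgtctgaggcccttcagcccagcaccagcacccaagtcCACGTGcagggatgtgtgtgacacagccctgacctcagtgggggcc
Cry1, chr10:85185069-85185154, minus strand: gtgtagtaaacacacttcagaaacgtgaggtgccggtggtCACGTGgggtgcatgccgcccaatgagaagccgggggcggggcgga
Tef, first start, chr15:81802506-81802591, plus strand: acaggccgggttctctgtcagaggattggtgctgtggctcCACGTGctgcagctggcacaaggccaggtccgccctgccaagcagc
Tef, second start, chr15:81811236-81811321, plus strand: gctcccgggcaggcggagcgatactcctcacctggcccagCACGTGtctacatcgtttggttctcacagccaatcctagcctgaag
Nr1d1, chr11:98775378-98775445, minus strand: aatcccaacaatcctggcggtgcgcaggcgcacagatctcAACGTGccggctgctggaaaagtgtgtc
Per3, chr4:151044776-151044910, minus strand: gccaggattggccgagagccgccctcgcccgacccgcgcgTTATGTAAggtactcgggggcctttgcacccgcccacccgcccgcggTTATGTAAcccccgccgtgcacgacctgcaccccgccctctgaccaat
The E-box CACGTG lay 166 bases before the start of Per1, 60 before that of Cry1, and 127 and 138 before the 2 starts of Tef. Nr1d1 carried the related E-prime box (CACGTT on either strand) at 28 bases, and Per3 carried the D-box TTATGTAA at 205 and at 158 bases. Searched on both strands, the E-box was found in 7.15% of all 32851 promoter windows of the same length, the E-prime box in 4.68% and TTATGTAA in 0.938%. The E-prime box was also found in Cry1 and Cry2, and the ROR element core AGGTCA, which 16.3% of windows hold, in Per1, Nr1d2 and Clock. No match overlapped another. The cAMP element TGACGTCA (1.79% of windows) and the D-box form TTACGTAA (0.119%) were in none of the 13 windows, and the Dbp window held none of the 6 motif forms.

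Some facts of the arrays bear on all values. Signals are log2 values, quantile normalized over the 4 arrays, and each gene is given by its brightest probe set unless another is named. Genes whose mean reached the 40th percentile of gene means (log2 5.28) were analysed, 10916 in all, and below that cutoff a signal lies near background, where the size of a difference is not exact. Rbpj itself read 7.29 in the deleted and 8.63 in the control culture on probe set 1454896_at, and 8.19 and 9.02 in the deleted and control cells of the in vivo pair. On 1448957_at the deleted and control cultures read 7.48 and 8.58, and the in vivo pair 8.51 and 8.61. On 1418114_at the readings were 6.40 and 6.31 in the cultures, and 6.60 and 7.09 in the in vivo pair. Where these probe sets lie relative to the deleted exons was not used here. All 10 fibroblast markers passed the cutoff. In vivo 8 of the 10 were lower in the deleted array (median -0.11), with Lum at -1.06, Fbln1 at -0.65, Pdgfra at -0.59 and Fn1 at -0.33, and in vitro 8 of the 10 were higher (median 0.20). The control probe sets for RNA integrity differed within the in vitro pair: the 3′ signal of Gapdh exceeded its 5′ signal by 0.02 in the deleted culture and by 1.003 in the control, the excess for Actb was 0.40 and 1.11 and for Pcx 2.01 and 3.16, whereas for Tfrc it ran in the opposite direction, at 1.45 and 0.96. In vivo these excesses were 0.13 and 0.14 for Gapdh, 0.15 and 0.41 for Actb, 0.83 and 1.10 for Pcx and 1.54 and 1.25 for Tfrc.

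Of the 10 clock genes, 9 passed the cutoff and Per2 did not. In the in vivo pair 7 of the 9 were lower in the Rbpj-deleted cells, with a median log2 difference of -0.38, where the median of all genes analysed was -0.03 and 53.6% of them were lower. With the median signal of a gene's probe sets in place of the brightest, 4 of 8 were lower and the in vivo median was -0.12. Dbp alone differed by at least 2-fold, as did 6.62% of all genes (3.81% were lower by that much), and Dbp, Per1 and Cry1 differed by at least 1.5-fold, as did 19.2%. In the in vitro pair 6 of the 9 were lower in the deleted culture, with a median of -0.03, where the median of all genes was -0.06 and 57.5% were lower. That in vitro count was between 4 and 7, of 7 to 10 genes, under the alternative settings. None differed by 2-fold there, as 1.93% of genes did, and Dbp alone differed by 1.5-fold, as did 14.8%. In 4 of the 9 genes (Per1, Dbp, Tef and Clock) both deleted arrays lay below both control arrays, and in none did both lie above. Over all genes both deleted arrays lay below both controls in 15.7% and above both in 9.43%. For Tef and Clock other probe sets differed in the opposite direction.

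**Figure D1:**
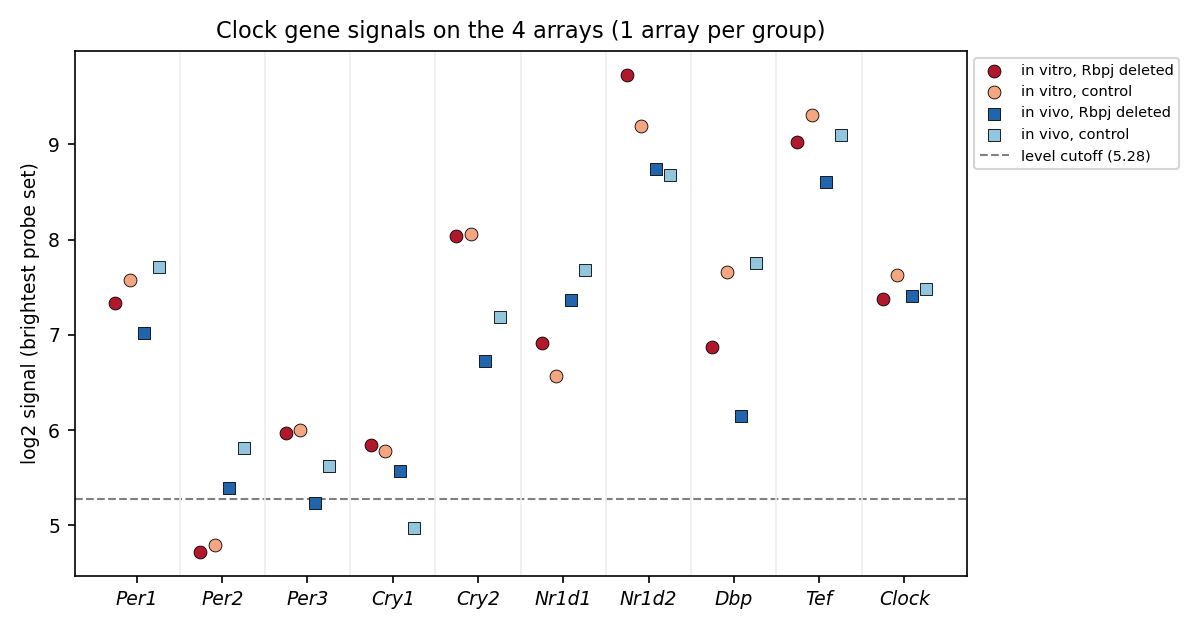
Log2 signal of the brightest probe set of each clock gene on the 4 arrays, with circles for the in vitro pair and squares for the in vivo pair, the deleted array left of its control, and the level cutoff of 5.28 dashed. For Dbp both deleted arrays (6.87 and 6.15) lie below both controls (7.66 and 7.76), and Per2 lies under the cutoff on both in vitro arrays.

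The deletion effect shared by both systems was fitted with limma over the 4 arrays, with system as a covariate and 1 residual degree of freedom. After Benjamini-Hochberg adjustment over all 10916 genes it called 0% of genes and so 0 of the 9 clock genes. At an unadjusted p under 0.05 limma had 759 genes, of which 1 was a clock gene. That gene was Dbp, with an effect of -1.20 ± 0.28 (SE, log2, 4 arrays), an unadjusted limma p of 0.00852 and an adjusted p of 0.679. It was lower in both deleted arrays. The adjusted limma p of the other 8 lay between 0.690 and 0.991.

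Dbp encodes a PAR bZIP activator whose transcript is among the most strongly cycling outputs of the clock. Its brightest probe set read 6.87 and 6.15 in the deleted in vitro and in vivo arrays, against 7.66 and 7.76 in their controls. The controls were nearly level with each other, and both deleted arrays were lower. The difference was -0.79 in vitro (1.73-fold lower) and -1.61 in vivo (3.06-fold lower). In vivo 107 of 10916 genes lay as far down or farther (0.98%), and in vitro 415 did (3.80%). The second probe set, 1418174_at, read 5.49 and 5.92 in the deleted in vitro and in vivo arrays, against 5.97 and 6.72 in their controls. It gave the same direction in both pairs, with differences of -0.47 in vitro and -0.80 in vivo, both under 2-fold. The suffix of the brightest probe set, 1438211_s_at, marks probes that can match more than 1 transcript, so the 2-fold call for Dbp rests on that probe set.

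Tef encodes a further PAR bZIP factor that shares D-box targets with DBP. Its brightest probe set read 9.02 and 8.60 in the deleted in vitro and in vivo arrays, against 9.31 and 9.10 in their controls. Both deleted arrays were below both controls, by 0.29 in vitro and 0.50 in vivo. Probe set 1450184_s_at went the other way, at 6.02 and 5.72 in the deleted arrays, against 5.18 and 5.34 in the controls, a difference of 0.84 in vitro and 0.38 in vivo. Its in vitro control was under the cutoff of 5.28 and its in vivo control just above it, so these sizes are not exact. A dim probe set, 1438033_at, lay between 4.06 and 4.27 on all arrays. The direction for Tef thus depended on the probe set. In vivo 2 of its 3 probe sets were above 0, and in vitro 1 of 3.

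Among the Per genes, which encode the repressors that accumulate and are degraded each day, Per1 had the largest difference. Its single probe set read 7.34 and 7.02 in the deleted in vitro and in vivo arrays, against 7.58 and 7.71 in their controls. Both deleted arrays were lower, by 0.24 in vitro and by 0.70 in vivo (1.62-fold). In vivo 8.19% of genes lay as far down. Per2 is a core repressor like Per1. Its brightest probe set read 4.72 and 5.40 in the deleted arrays, against 4.79 and 5.81 in the controls, so that only the in vivo arrays exceeded the cutoff. It differed by -0.07 in vitro and -0.41 in vivo, and its other 2 probe sets, all readings at or under 5.00, differed by -0.12 to 0.11 over both pairs. Per3, a paralogue that is not required for the loop to run in mice, read 5.97 and 5.24 in the deleted arrays, against 6.00 and 5.62 in the controls. Its difference was -0.03 in vitro and -0.38 in vivo, where the deleted signal was just under the cutoff. The other 5 probe sets of Per3 were dim, between 3.67 and 5.25, and differed by -0.41 to 0.14.

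The 2 cryptochromes, which complete the repressor complex with the PER proteins, differed in opposite directions in vivo. Cry1 read 5.85 and 5.57 in the deleted in vitro and in vivo arrays, against 5.79 and 4.98 in their controls. It was level in vitro (0.06) and higher by 0.59 in the deleted in vivo array, where the control was under the cutoff, so the size is not exact. In vivo 7.92% of genes lay as far up. Cry2 read 8.04 and 6.72 in the deleted arrays, against 8.06 and 7.19 in the controls. It was level in vitro (-0.02) and lower by 0.47 in vivo. Each cryptochrome had 1 probe set. The promoter stretches of Per1, Tef and Cry1 above hold the E-box CACGTG. On their brightest probe sets these genes differed in vivo by -0.70, -0.50 and 0.59. For Tef the other probe sets differed by 0.38 and 0.09 in vivo. Any part of the E-box in these values was not tested.

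Nr1d1 and Nr1d2 encode the REV-ERB repressors. Nr1d1 read 6.91 and 7.37 in the deleted in vitro and in vivo arrays, against 6.57 and 7.68 in their controls. It was higher by 0.34 in the deleted culture and lower by 0.31 in the deleted in vivo cells. Nr1d2 read 9.73 and 8.74 in the deleted arrays on its brightest probe set, against 9.19 and 8.68 in the controls. It was higher by 0.54 in vitro (1.45-fold), where 6.20% of genes lay as far up, and by 0.07 in vivo. Its dimmer probe set, 1416959_at, read 6.28 and 4.44 in the deleted arrays, against 4.25 and 4.37 in the controls. That is a difference of 2.03 in vitro and of 0.07 in vivo, and 3 of these 4 signals were under the cutoff. The probe sets of Nr1d2 thus had 1 direction in vitro and differed in size by over 1 log2 unit.

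Clock encodes the E-box-binding partner of BMAL1, whose transcript cycles little in most tissues. On its brightest probe set it read 7.37 and 7.41 in the deleted in vitro and in vivo arrays, against 7.63 and 7.48 in their controls. The deleted arrays were lower by 0.25 in vitro and by 0.07 in vivo. A probe set of like level, 1418659_at, read 7.92 and 7.05 in the deleted arrays, against 7.32 and 6.93 in the controls, higher by 0.60 and 0.12. The other 2 differed by -0.10 and -0.21 in vitro and by 0.18 and 0.13 in vivo, so no single direction can be given for Clock. Among the 6 genes with several probe sets, the SD of the differences over probe sets was larger in vitro than in vivo for Nr1d2 (1.05 and 0.001), Tef (0.60 and 0.45), Clock (0.40 and 0.11) and Per3 (0.18 and 0.16). It was smaller in vitro for Dbp (0.22 and 0.58) and Per2 (0.12 and 0.23). The part of RNA integrity in the in vitro values was not tested. Over the genes analysed, the Spearman correlation of the differences with gene length was 0.26 in vitro and -0.04 in vivo. Removing the trend on gene length, which does not measure RNA integrity, left Dbp at -0.63, Nr1d2 at 0.48 and Clock at -0.35 in vitro.

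**Figure D2:**
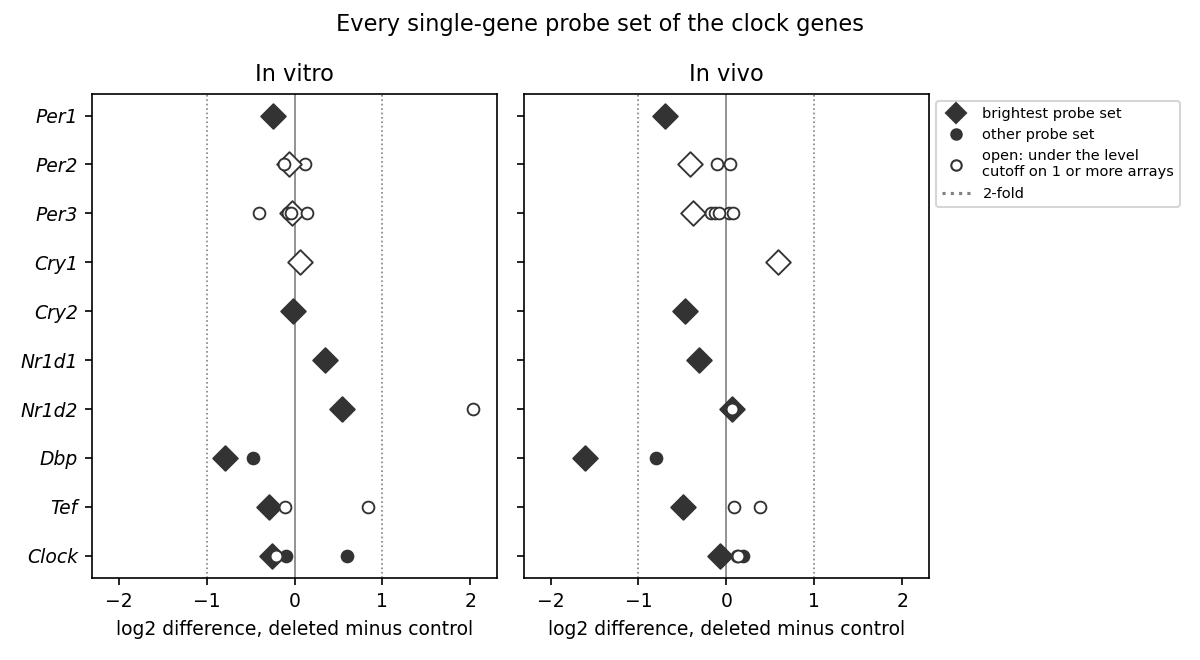
Log2 difference, deleted minus control, of every single-gene probe set of the clock genes, in vitro at left and in vivo at right. Diamonds are the brightest probe set of a gene and open symbols were under the cutoff on at least 1 array; both probe sets of Dbp lie left of 0 in both pairs, whereas those of Tef and Clock lie on both sides.

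Levels also differed between systems, but with 1 pair of arrays per system the system and the processing of its arrays cannot be told apart. Between the controls, Nr1d1 was 1.11 and Per2 1.02 higher in vivo than in vitro, whereas Cry2, Cry1 and Nr1d2 differed by -0.87, -0.81 and -0.52, and Per1, Dbp and Clock differed by 0.13, 0.10 and -0.14. Between the deleted arrays (in vivo minus in vitro) Cry2 differed by -1.32, Nr1d2 by -0.99, Per3 by -0.73, Dbp by -0.72 and Per2 by 0.67, and the other 5 genes lay between -0.42 and 0.46. For Cry1, Cry2, Per2 and Nr1d1 the system difference between controls thus exceeded in size the same gene's own deletion difference in either pair. Cry1 and Per2 had readings under the cutoff.

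Of 26 other genes of the clock, 24 had a probe set and 20 passed the cutoff. In vivo 12 of the 20 were higher and 8 lower in the deleted cells (median 0.14), where 46.4% of all genes were higher, and in vitro 10 were higher and 10 lower (median 0.01), where 42.5% of all genes were higher. On the brightest probe sets, those at least 2-fold different were Klf10 in both pairs and Noct in vivo, both higher. Klf10 and Noct each have a single probe set, and limma called none of the 20 after adjustment. Dimmer probe sets of Fbxw11 and Nampt, under the cutoff on at least 1 array, differed by 2.39 and 1.12 in vitro. Their brightest differed by -0.04 each. Of all genes 2.81% were at least 2-fold higher in vivo and 0.788% in vitro. Klf10 and Noct belong to the list of clock outputs, of which 4 of 5 were higher in each pair, with a median of 0.71 in vivo and 0.18 in vitro. Noct encodes nocturnin, a phosphatase with rhythmic expression. It read 8.44 and 8.04 in the deleted in vitro and in vivo arrays, against 7.71 and 6.78 in their controls. Both deleted arrays were higher, by 0.73 and by 1.26. Klf10, a zinc-finger repressor that is controlled by the clock and by TGF-beta, read 7.22 and 7.29 in the deleted arrays, against 6.19 and 5.97 in the controls. It was higher by 1.04 and 1.32.

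Bmal1, the partner of CLOCK and the target of the REV-ERB repressors, read 7.67 and 7.65 in the deleted in vitro and in vivo arrays, against 6.97 and 7.49 in their controls. It was higher by 0.70 in vitro and by 0.16 in vivo, and its second, dim probe set differed by -0.05 and -0.12. Npas2, which can stand in for CLOCK, was under the cutoff, with differences of 0.63 and -0.25. Rora, an activator at the same elements, read 6.91 and 7.08 in the deleted arrays, against 7.40 and 7.76 in the controls. It was lower by 0.49 and 0.68, but its 9 probe sets spanned -0.49 to 0.49 in the cultures and -0.68 to 0.33 in vivo. Nfil3, the repressor that competes with DBP and TEF at D-boxes, was nearly level, at 8.72 and 8.49 in the deleted arrays, against 8.87 and 8.45 in the controls. Of the modulators 2 of 6 were higher in vitro and 3 of 6 in vivo, and the same counts held for the list of kinases, ubiquitin ligases and the ubiquitin protease Usp2 that act on clock proteins.

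**Figure D3:**
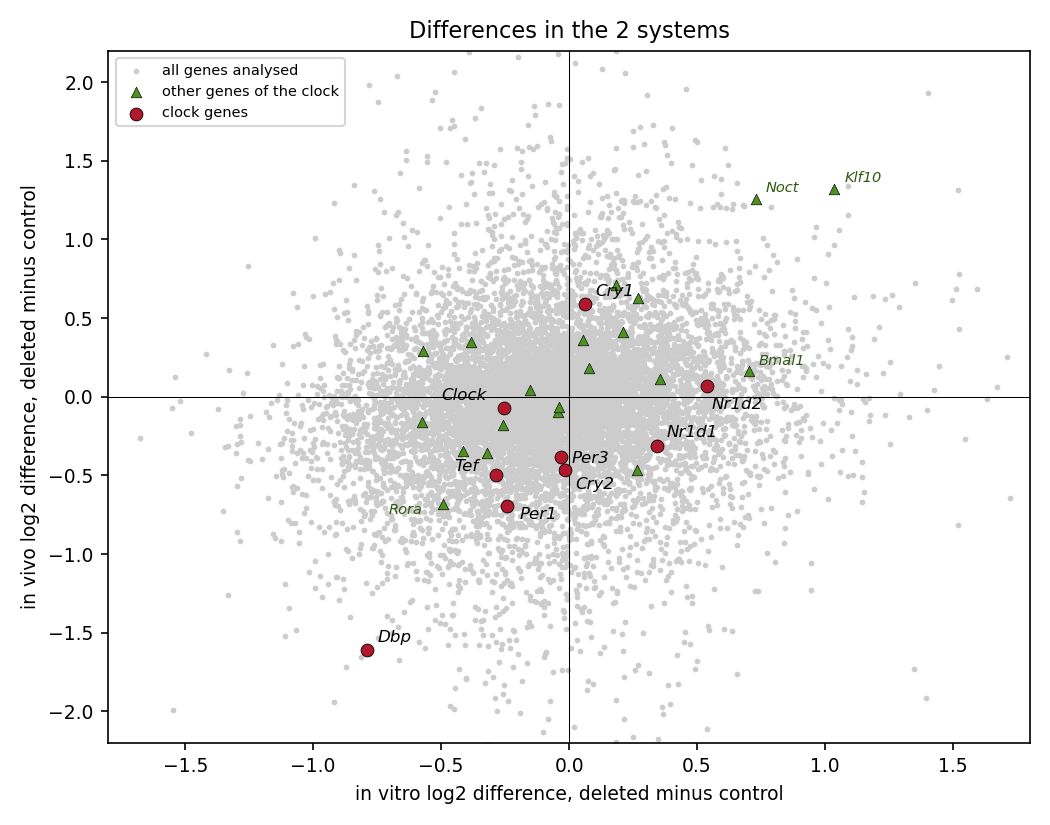
In vitro against in vivo log2 difference (deleted minus control) of all genes analysed (grey, 90 outside the plotted range), the 9 clock genes above the cutoff (red circles) and 20 other genes of the clock (green triangles). Dbp lies at -0.79 and -1.61, and Klf10 and Noct lie in the opposite quadrant.

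**Figure D4:**
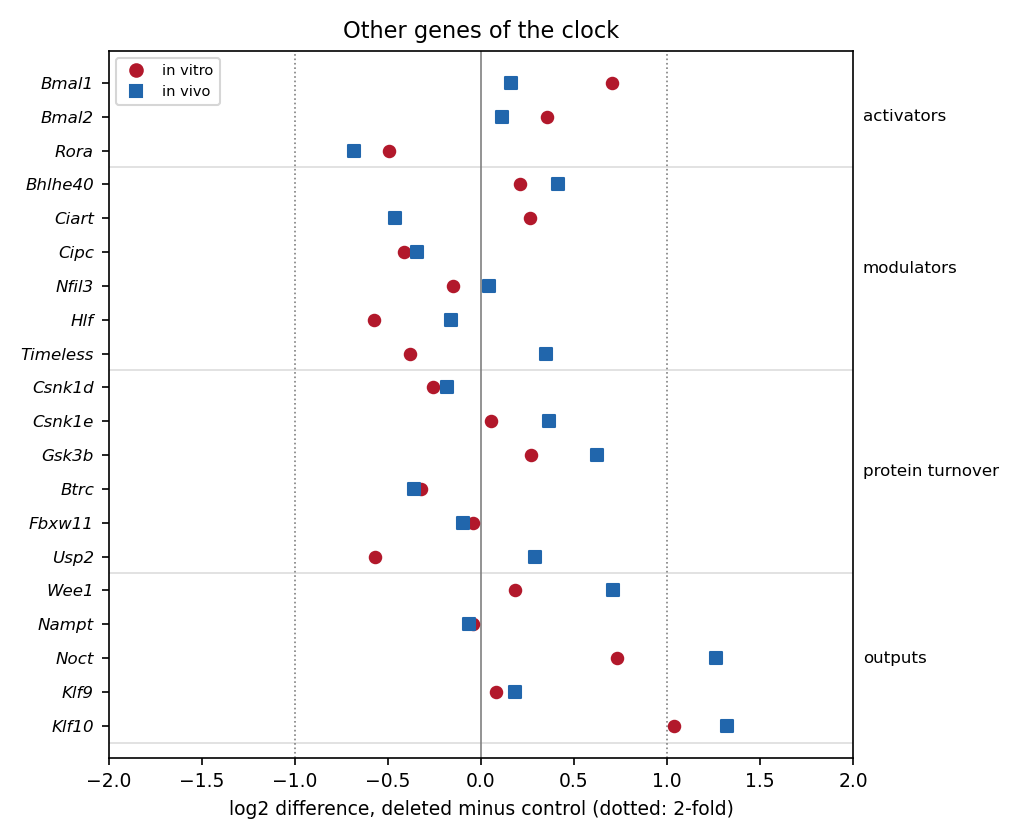
Log2 difference, deleted minus control, of the 20 other clock genes analysed, in vitro (circles) and in vivo (squares), grouped by role, with 2-fold dotted. Klf10 and Noct are the genes past 2-fold, and Bmal1 lies at 0.70 in vitro and 0.16 in vivo.

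Genes that respond to the signals known to reset fibroblast clocks were read beside Per1. Of 6 glucocorticoid-induced genes analysed, 4 were higher and 2 lower in vivo (median 0.05), and 3 were higher and 3 lower in vitro (median 0.11). In vivo Errfi1 differed by 1.59, Tsc22d3 by -0.97, Cebpd by -0.77 and Sgk1 by 0.44. In vitro the values farthest from 0 on the brightest probe sets were those of Sgk1 (0.42) and Dusp1 (0.30). Other probe sets above the cutoff on all 4 arrays differed more in vitro, for Errfi1 by 1.68, Fkbp5 by 0.79 and Tsc22d3 by 0.53. A further probe set of Tsc22d3 differed by -0.15. Of 8 genes induced early by cAMP or serum, 3 were higher and 5 lower in vivo (median -0.05), with Nr4a1 at -0.73 and Fos at -0.52. In vitro 5 were higher and 3 lower (median 0.07), with Fos at 0.42. Neither list had a single direction in either pair on the brightest probe sets. The part of such signals in the clock differences was not tested.

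Markers of other cells and of proliferation differed within the in vivo pair. On the brightest probe sets that pair holds the largest clock difference (Dbp), whereas Nr1d1, Nr1d2 and Clock differed more in vitro. Keratinocyte markers, of which 9 of 12 were analysed, summed to log2 12.67 in the deleted in vivo array and 9.34 in its control. In the deleted and control cultures they summed to 9.76 and 10.33. In vivo 7 of the 9 were higher and 2 lower, Krt10 at -0.33 and Lor at -0.22. In vitro 2 were higher and 7 lower. Skeletal muscle markers (8 of 10 analysed) summed to 11.71 and 9.54 in vivo and to 8.56 and 8.80 in vitro. The cutoff applies to the mean of all 4 arrays, so a single high reading helps a marker into its sum. Myh3 read 7.77 in the deleted and 5.42 in the control cells in vivo, and 4.02 and 4.72 in vitro. Dsp, a keratinocyte marker, read 7.98 and 3.23 in vivo, and 5.42 and 5.83 in vitro. The keratinocyte and muscle sums were thus in part selected on the in vivo excess they show. Proliferation genes were higher in 9 of 9 cases in vivo (sums 13.60 and 12.54) and in 6 of 9 in vitro (12.73 and 12.49). Macrophage markers (4 of 6 analysed) summed to 8.48 and 8.82 in vivo and 9.21 and 9.40 in vitro, endothelial markers (2 of 6) to 6.35 and 6.45 and to 7.19 and 7.09, and adipocyte markers (3 of 6) to 10.86 and 10.50 and to 12.47 and 12.56. Keratinocyte markers under the cutoff included Trp63, Krt1 and Cdh1, which differed by -0.45, -0.19 and 1.66 in vivo. Fibroblast markers summed to 15.79 and 15.87 in vivo and to 16.08 and 15.91 in vitro. These sums are weighted to the brightest markers, near the top of the signal range, and say little of the others. Col1a1 read 13.72 in both deleted arrays, against 13.55 and 13.57 in the in vitro and in vivo controls. Taken gene by gene, 8 fibroblast markers were lower in vivo and 2 higher, with Lum at -1.06, Fbln1 at -0.65 and Pdgfra at -0.59. The near-equal in vivo sums thus do not show an equal fibroblast content. In such bulk RNA fewer cells of a type and less RNA per cell cannot be told apart. The part of these cells and of proliferation in the clock differences was not tested.

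**Figure D5:**
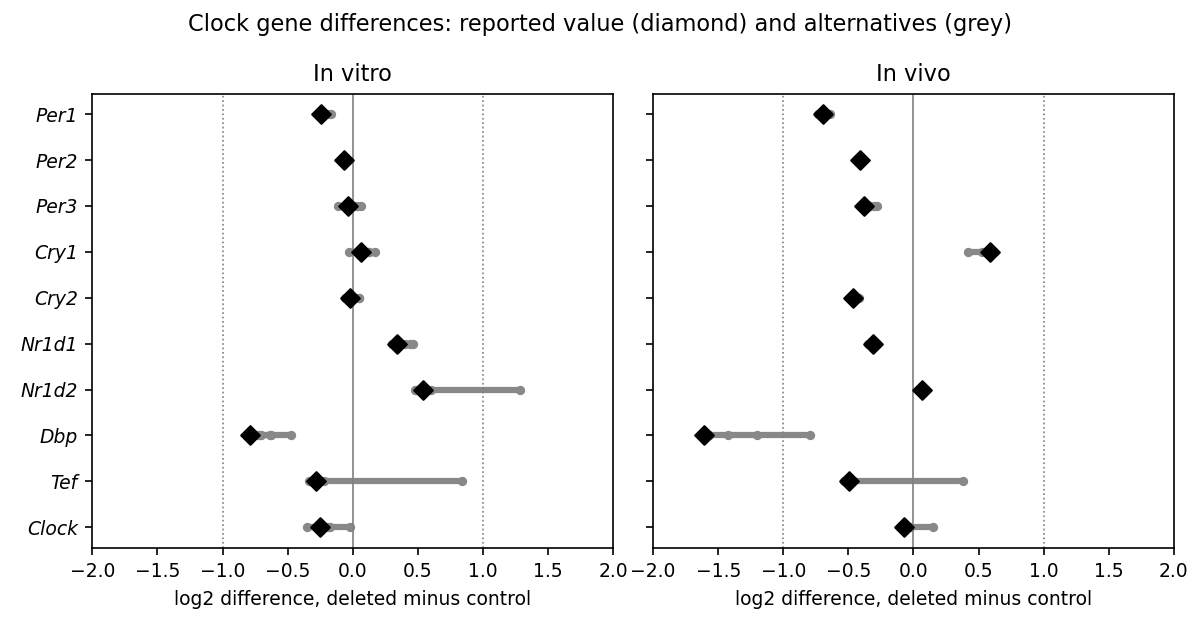
Reported log2 difference of each clock gene (diamond) with its values under up to 9 alternative settings (grey points and bar), in vitro at left and in vivo at right. Per1 and Cry2 stay left of 0 in vivo under each setting, Dbp spans -1.61 to -0.80, and Tef crosses 0 in both pairs.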

How the data were processed

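Per the labels' protocols, the authors primed cDNA on poly(A) RNA with a T7 oligo(dT) primer and made biotin-labelled antisense cRNA, which makes signals sensitive to RNA integrity and to how far probes lie from the 3′ end. The deposited table holds log2 values for 45101 probe sets on 4 arrays (range 2.87 to 13.79, medians 4.94 to 5.06). The log2 scale was read from the values. Software, background correction and normalization are not given in the sources used here.

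Values were quantile normalized over the arrays. The platform annotation named 34945 probe sets with 1 gene, and 34741 matched RefSeq (GRCm38.p6) for current symbols. Bmal1 is listed there as Arntl. Each gene took the values of its brightest probe set over the 4 arrays, and genes at or above the 40th percentile were analysed. Limma 3.58.1 in R 4.3.3 (lmFit, eBayes) fitted the deletion with system as covariate, adjusted by Benjamini-Hochberg at 0.05. It was also run on simulated data with the same change in both systems, which does not show how well it works on these arrays. The number of arrays limits the precision.

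The members, the lists and the settings were chosen with earlier results of these data known. Genes named are all members with every probe set, other clock genes at least 2-fold different, Bmal1, Npas2, Rora and Nfil3, up to 4 genes per further list with the largest differences, and Rbpj. Krt10, Lor, Dsp, the keratinocyte markers under the cutoff, Myh3, Col1a1, Fbxw11, Nampt and the further glucocorticoid-induced probe sets were named after their values were seen. Alternatives were the values as deposited, loess within pairs, centring on the median, an offset of 15.4 linear units, no level filter or one at the 60th percentile, the median of probe sets, removal of probe sets ending in _x_at, _s_at or _a_at, removal of the trend on gene length, 1.5-fold and 3-fold thresholds, a variance trend and no system term.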

Additional observations from a re-analysis of the deposited data

Results flagged for a closer look

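Nr1d1 differed in opposite directions in the 2 systems. It was higher by 0.34 in the deleted culture and lower by 0.31 in the deleted in vivo cells, so that the in vivo difference minus the in vitro difference was -0.65. With 1 pair per system the difference between systems was not tested. Nr1d1 has a single probe set, so 5 of the 9 alternatives could move its values. Under these the in vitro value stayed between 0.30 and 0.47 and the in vivo value between -0.35 and -0.28.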

How the results depend on the processing

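The labels give no replicate numbers, and the limma fit already pairs the arrays by system. The count of members at least 2-fold different in vivo was 1 (Dbp), and it was 0 without probe sets ending in _x_at, _s_at or _a_at, where Dbp stood at -0.80. It was 3 at a 1.5-fold threshold. The in vitro count was 0, and it was 1 at a 1.5-fold threshold (Dbp) and 1 when a gene took the median of its probe sets (Nr1d2, at 1.28). Under that setting the in vivo median of the members was -0.12, against -0.38 as reported. Tef then stood at 0.84 in vitro and 0.38 in vivo, against -0.29 and -0.50 on its brightest probe set. Those median values are the ones of probe set 1450184_s_at alone. Clock in vivo then stood at 0.15. The in vitro median lay between -0.24 and 0.04 and so had no settled direction. Dbp in both pairs, Per1 in both pairs and Cry2 in vivo were below 0 under each alternative that could move them (7 of 9 for Dbp, 5 of 9 for the others, which have 1 probe set). Signals near the cutoff (Per2, Per3 and Cry1) limit what their differences show.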
